A study of Mus musculus with 9 samples.

Results

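Lenses with a conditional knockout (cKO) of Sip1 were compared with lenses of inbred wild type mice, with 3 RNA-seq libraries in each group. The comparison covered 128 genes. These were the genes listed once in the tables of both groups, out of 190 genes in the cKO tables, 7676 genes listed once in the inbred tables and 7738 genes in all. Every lens came from a mouse embryo at 15.5 days post conception, and each library pooled 30 lenses from an independent biological replicate. The cKO lenses had the genotype Sip1 flox/flox + MLR10Cre on a strain labelled mix. The inbred lenses came from the strain C57Bl/6<har>, with no floxed allele and no Cre in their labels. A further 3 libraries of the same mix strain, with Sip1 flox/flox and no Cre, are called mixed wild type and are used below only to place the values. The cKO and inbred groups therefore differed in the Cre transgene, the floxed alleles and the strain background together, and these cannot be told apart in this comparison.

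Sip1 is the protein of the gene Zeb2, a zinc finger transcription factor that binds CACCT-type E-box sequences and is best known for repressing genes of epithelial cells. In the embryo, the lens forms from the surface ectoderm: its front stays an epithelium, and its cells at the equator elongate into fibre cells, which fill up with crystallins, rebuild their cytoskeleton and later lose their nuclei and organelles. MLR10Cre drives Cre recombinase from a modified alphaA-crystallin promoter in lens epithelium and fibre cells, which aims the deletion at the lens.

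The 128 genes are not a sample of the transcriptome. By the authors' normalized expression values, no gene of the 190 in the cKO tables had a cKO mean within 2.50-fold of its mean in mixed wild type, so these genes were picked for a difference between other groups that include the same cKO libraries. The inbred tables held no gene with a mean under 2 RPKM (reads scaled to the length of the exons and to the mapped reads of the library). Of the 62 genes in the cKO tables that the inbred tables did not list, 60 were higher in cKO than in mixed wild type and 2 were lower, while the 128 shared genes held 43 higher and 85 lower. Genes at a low wild type level that rose in the knockout were thus mostly outside the comparison. Depth was 14.1 to 16.7 M reads (M, mega) in the inbred libraries and 25.9 to 27.4 M in the cKO libraries. In the inbred libraries the lens markers Cryaa, Mip, Bfsp1, Foxe3 and Prox1 had means of 89016, 3622, 1473, 136 and 97.6 RPKM. Zeb2 stood at 5.16, 5.96 and 6.31 RPKM in the inbred libraries and was not among the 190 genes analysed in cKO, so the knockout label was not checked here. Of the markers of other tissues, those of macrophages, periocular mesenchyme, skeletal muscle and neurons were not in the inbred list.

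Of the 128 genes, 120 (93.8%) differed between cKO and inbred wild type at an adjusted p under 0.05, which is what "called" means below. The test was limma on log2(RPKM + 0.5), with Benjamini-Hochberg adjustment over the 128 genes. 42 genes (32.8%) rose in cKO and 78 (60.9%) fell. The median difference over all 128 genes was -0.57 on this log2 scale, to which the single genes and groups below can be held. Levels of the 2 groups' libraries did not overlap in 120 genes (93.8%), of which 41 (32.0%) had all 3 cKO libraries above and 79 (61.7%) had all 3 below. Since the list was chosen on the cKO libraries, these shares describe the list and are no estimate for the lens transcriptome.

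Among the genes compared, rises were fewer and, in RPKM, larger than falls. The smaller number and the larger size of the rises hold for this selection of genes only. Of the genes described below whose RPKM and normalized values were not in proportion, 20 were called falls and 3 were called rises. Their part in the difference in size was not tested. By the authors' normalized values, 103 of the 190 genes analysed in cKO were higher than in mixed wild type and 87 were lower. The genes left out of the comparison with inbred wild type were 60 of the higher and 2 of the lower ones. The median fold among the called genes was 3.11 for the rises and 2.20 for the falls, both as ratios of mean RPKM. 24 called genes rose at least 3-fold and 19 fell at least 3-fold, and at least 4-fold changes numbered 12 and 9. A called difference of at least 2-fold in mean RPKM was seen in 81 genes (63.3%), 35 higher (27.3%) and 46 lower (35.9%). The standard errors of the differences ran from 0.08 to 0.30 with a median of 0.13, and the plot of all genes by rank shows the intervals against the sizes.

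**Figure D1:**
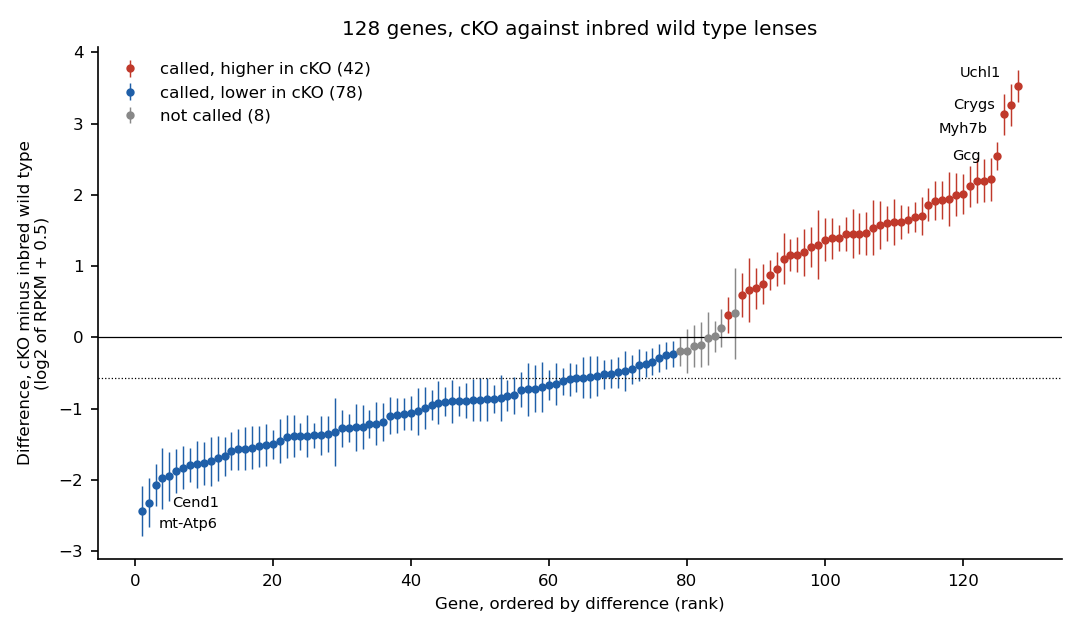
Difference between cKO and inbred wild type on the log2(RPKM + 0.5) scale (vertical axis) for the 128 genes in order of size (horizontal axis, rank). Points are limma estimates from 3 against 3 libraries and bars their 95% confidence intervals. Red marks the 42 genes called higher, blue the 78 called lower and grey the 8 not called, the solid line marks no difference and the dotted line the median of -0.57.

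Uchl1, Crygs, Myh7b and Gcg had the largest rises among the 128 genes. Uchl1, a ubiquitin hydrolase that is abundant in neurons, had a level of 1971, 2049 and 2239 RPKM in cKO and of 194, 183 and 165 RPKM in inbred wild type. Its mean of 2086 ± 138 RPKM (SD, n = 3) was 11.6-fold higher than the inbred mean of 180.5 ± 14.7 RPKM, a log2 difference of 3.53 ± 0.10 (SE, limma adjusted p = 3.60e-13). No library of either group came near the other group, and the mixed wild type libraries, at 142, 158 and 142 RPKM, lay below all inbred libraries. Uchl1 and Crygs were also the 2 genes with the highest cKO levels.

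Crygs encodes gammaS-crystallin, a structural protein of lens fibre cells that accumulates late. Its level was 3200.4, 3983 and 3991 RPKM in cKO against 354, 471 and 343 RPKM in inbred wild type. The rise was 9.58-fold, from 389 ± 70.9 to 3725 ± 454 RPKM (SD, n = 3), and the log2 difference was 3.27 ± 0.14 (SE, limma adjusted p = 2.23e-11). Crygs was the only measured gene of 16 crystallins listed, all of which were in the inbred tables, so the levels of the other crystallins in cKO were not analysed here. Mixed wild type, at 369.9, 429.7 and 449 RPKM, overlapped inbred wild type.

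Gcg encodes proglucagon, the precursor of glucagon and of the glucagon-like peptides. It was measured at 149, 151 and 159 RPKM in cKO and at 26.0, 28.3 and 23.1 RPKM in inbred wild type. The rise was 5.93-fold (log2 difference 2.55 ± 0.09, SE, limma adjusted p = 3.99e-12). Mixed wild type held 28.0, 24.8 and 26.6 RPKM, but the list was chosen on the difference between cKO and those libraries. Gcg was the only measured member of 21 genes for peptide hormones and their receptors, of which 2 were in the inbred tables.

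**Figure D2:**
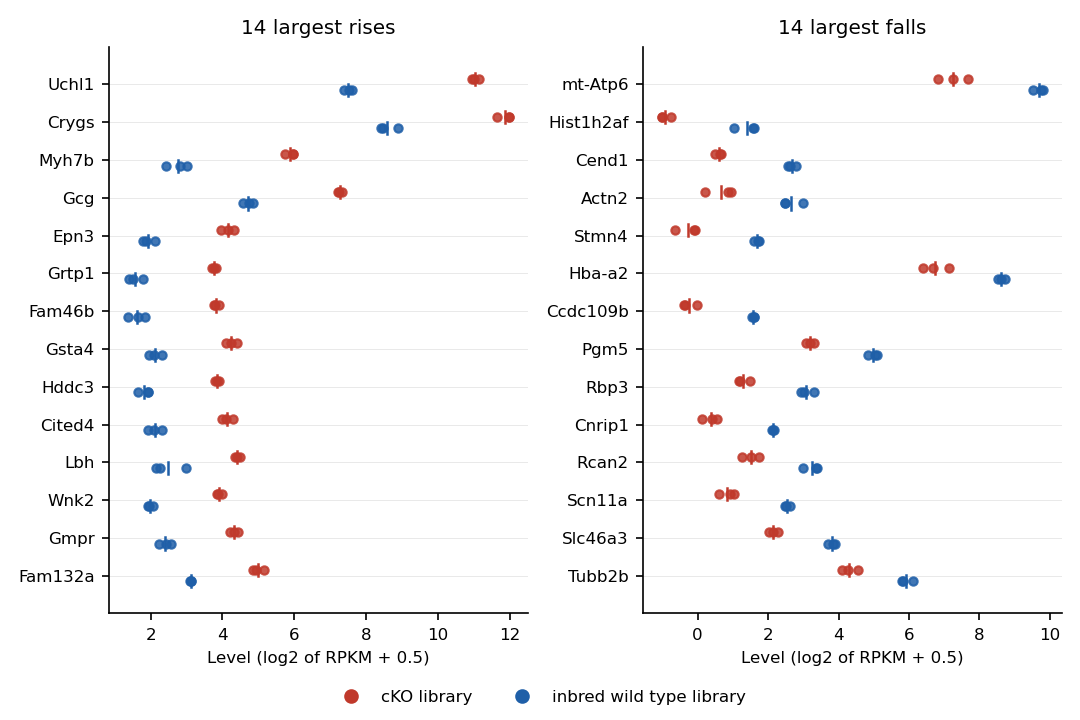
Level of each library on the log2(RPKM + 0.5) scale (horizontal axes) for the 14 genes with the largest rises (left) and the 14 with the largest falls (right) in cKO against inbred wild type. Each point is a library, red for cKO and blue for inbred wild type, 3 per group, and the vertical ticks are group means on the log2 scale; in all 28 genes the 3 libraries of a group lie on the same side of the 3 of the other.

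The promoters of 4 changed genes are shown here because CACCT-type boxes are the sequences that Sip1 is known to bind. Mypn, Hes6 and Tubb2a were chosen because they hold the box, and Uchl1 for its rise, so the 4 say nothing of how common the box is. They are RefSeq sequences of mouse build GRCm38.p6, 250 bases that end just before the gene's start, 5′ to 3′ on the gene's strand. Capitals mark CACCT or AGGTG, lengthened to CACCTG or CAGGTG where that G or C is present. Hes6 has another start in RefSeq, whose 250 bases hold neither motif and are not shown. Uchl1 holds neither, and of the other genes shown Mypn and Hes6 rose 3.40- and 3.23-fold in cKO and Tubb2a fell 2.64-fold.
Uchl1, chr5:66675871-66676120, plus strand: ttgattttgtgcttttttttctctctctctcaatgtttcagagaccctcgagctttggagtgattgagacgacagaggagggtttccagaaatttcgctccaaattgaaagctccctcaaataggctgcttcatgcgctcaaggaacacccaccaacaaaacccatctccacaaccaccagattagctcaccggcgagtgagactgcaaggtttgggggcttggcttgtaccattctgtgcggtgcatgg
Mypn, chr10:63203953-63204202, minus strand: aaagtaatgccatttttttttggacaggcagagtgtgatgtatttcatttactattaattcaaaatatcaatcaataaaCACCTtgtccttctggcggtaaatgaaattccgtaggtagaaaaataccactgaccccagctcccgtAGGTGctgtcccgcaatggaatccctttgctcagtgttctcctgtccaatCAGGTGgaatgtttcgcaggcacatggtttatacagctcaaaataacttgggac
Hes6, chr1:91414039-91414288, minus strand: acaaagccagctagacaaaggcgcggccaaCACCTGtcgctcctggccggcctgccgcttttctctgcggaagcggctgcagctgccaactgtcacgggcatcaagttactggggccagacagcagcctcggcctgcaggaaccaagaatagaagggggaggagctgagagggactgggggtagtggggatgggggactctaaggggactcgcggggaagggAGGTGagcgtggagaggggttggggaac
Tubb2a, chr13:34078009-34078258, minus strand: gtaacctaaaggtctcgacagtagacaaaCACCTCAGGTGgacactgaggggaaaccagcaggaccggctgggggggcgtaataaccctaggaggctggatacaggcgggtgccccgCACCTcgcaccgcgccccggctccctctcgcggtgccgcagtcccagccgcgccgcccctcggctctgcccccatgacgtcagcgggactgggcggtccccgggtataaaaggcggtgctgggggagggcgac

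Over all matched genes, the share of promoters with the box was close to that of promoters at large, which is a description with no test. The motif CACCTG was looked for on both strands (its other strand reads CAGGTG), and the shorter motif CACCT lies within it. The search covered windows from 250 bases before to 50 bases after each RefSeq start. Of the 128 genes, 103 matched the promoter table and had 129 windows. It was present in 8 of 43 windows (18.6%) of genes that rose, 14 of 77 (18.2%) of genes that fell, and 0 of 9 of genes not called. Over the whole table, 6640 of 32851 windows (20.2%) held it. The shorter motif CACCT or AGGTG was present in 49.6% of the 129 windows and in 51.9% of all windows. Among the largest rises, Myh7b held CACCTG after its start and Grtp1 before it, while Uchl1, Crygs and Gcg held none in the window.

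Genes of the sarcomere and of the actin, spectrin and keratin cytoskeleton were split, with 5 of 10 higher and 5 lower and a median difference of -0.14. Over all 128 genes 32.8% rose and 60.9% fell. Myh7b, a myosin heavy chain of muscle and heart, had the largest rise of these 10 genes, at 61.3, 53.3 and 61.4 RPKM in cKO against 7.57, 4.88 and 6.51 RPKM in inbred wild type. That is a 9.28-fold rise, with a log2 difference of 3.13 ± 0.13 (SE, limma adjusted p = 2.23e-11). Mypn, which encodes a protein of the sarcomeric Z-disc and has CAGGTG in the promoter shown, stood at 9.08, 10.1 and 11.8 RPKM against 3.18, 3.47 and 2.47 RPKM and rose 3.40-fold. Stac2, Spna1 (alpha-spectrin of red cells) and Iqgap1, a scaffold of actin and small GTPases, rose 1.99-, 1.59- and 2.70-fold, and Spna1 lost its call with median centring (adjusted p of 0.117 by limma).

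In the opposite direction, Actn2, an alpha-actinin that anchors actin at the Z-disc, was measured at 1.33, 1.43 and 0.646 RPKM in cKO and at 5.08, 7.47 and 5.09 RPKM in inbred wild type. It fell 5.17-fold (log2 difference -1.98 ± 0.20, SE, limma adjusted p = 1.84e-07). Pgm5, a phosphoglucomutase relative found at muscle attachment sites, had 9.38, 8.69 and 7.86 RPKM against 28.0, 32.2 and 33.3 RPKM and fell 3.61-fold. Myo7b, a myosin of microvilli, fell 3.17-fold, Tpm2, a tropomyosin, fell 2.21-fold, and Krt40, a type I keratin of hair, fell 2.18-fold, a fall that was lost and changed sign with quantile normalization (log2 difference 0.03). Myh7b and Mypn thus moved opposite to Actn2 and Pgm5, all of them genes first known from striated muscle. Of a list of 45 sarcomere, actin and spectrin genes, 18 were in the inbred tables and 7 were measured in both, of which 4 rose, 2 fell and Tecrl was not called. Their summed level was 97.1 to 105 RPKM in the cKO libraries and 56.8 to 65.1 RPKM in the inbred libraries, with Myh7b the largest part in cKO and Pgm5 the largest part in inbred wild type. None was at 0 in any library. The skeletal muscle markers Myh3, Mylpf, Tnnt3, Des and Ttn were in neither list.

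All 8 microtubule genes fell, with a median difference of -1.30, beside falls in 60.9% of all 128 genes. The roles, here and in the other paragraphs, were formed after values were seen, so their counts only describe these groups. The beta-tubulins Tubb2a, Tubb2b and Tubb4 build the microtubules themselves. Tubb2a, with CAGGTG in its promoter, stood at 43.2, 37.7 and 38.7 RPKM in cKO and at 102, 103 and 110.4 RPKM in inbred wild type, a 2.64-fold fall (log2 difference -1.39 ± 0.09, SE, limma adjusted p = 1.54e-09). Tubb2b stood at 23.2, 18.9 and 16.6 RPKM against 54.8, 56.0 and 69.1 RPKM and fell 3.07-fold, and Tubb4 fell 2.71-fold. These tubulins were reduced by similar folds and their groups were far apart, but 56.4% of the sequence words of 31 bases in Tubb2a and 45.9% in Tubb2b also occur in other genes, so reads can have been split between tubulins.

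Stmn4, a stathmin that destabilises microtubules, had the largest fall of the microtubule group, at 0.457, 0.424 and 0.141 RPKM in cKO against 2.85, 2.75 and 2.51 RPKM in inbred wild type. Its mean fell 7.93-fold, and the log2 difference of -1.95 ± 0.16 (SE, limma adjusted p = 1.77e-08) is smaller than that ratio because the added 0.5 RPKM weighs on low levels. Dpysl2 (CRMP2), which binds tubulin dimers, fell 2.20-fold, the minus-end motor Kifc3 fell 2.93-fold and Tppp3, a tubulin polymerisation protein, fell 1.79-fold. Ccdc23, the partner of the vasohibins that remove the terminal tyrosine of tubulin, fell least, by 1.42-fold. All 8 stayed lower and called with median centring, and with quantile normalization 7 were called lower and Ccdc23 was not called.

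Of 16 genes best known from neurons, synapses and sense organs, 5 rose, 10 fell and Plxna1 was not called, with a median difference of -0.89. These counts are near the shares over all 128 genes, 32.8% higher and 60.9% lower. Cend1, which takes neuronal precursors out of the cell cycle, was measured at 1.09, 0.915 and 1.04 RPKM in cKO and at 5.64, 5.46 and 6.49 RPKM in inbred wild type. It fell 5.78-fold (log2 difference -2.07 ± 0.14, SE, limma adjusted p = 1.91e-09). Cnrip1, which binds the cannabinoid receptor CB1, had 0.966, 0.840 and 0.596 RPKM against 4.01, 3.89 and 3.82 RPKM and fell 4.88-fold.

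Rbp3, the retinoid-binding protein of the space between photoreceptors and pigment epithelium, had 2.33, 1.82 and 1.75 RPKM in cKO against 7.17, 7.53 and 9.33 RPKM in inbred wild type. It fell 4.07-fold and was the only measured gene of 23 retinal and photoreceptor genes. Faim2, an inhibitor of Fas-mediated cell death in neurons, fell 3.61-fold. The synaptic vesicle sensor Syt5, the AMPA receptor chaperone Cnih2, the myelin protein gene Pmp22, Nat8l (the enzyme that makes N-acetylaspartate), the calcium sensor Cabp5 and the neurotrophin receptor gene Ngfr fell 2.80-, 2.35-, 2.43-, 2.09-, 2.07- and 1.53-fold. Pmp22 was the most abundant of these genes in inbred wild type, at 99.3, 116 and 102 RPKM, and stood at 47.6, 40.8 and 42.2 RPKM in cKO.

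Besides Uchl1, the rises of this group were Whrn (3.07-fold), which encodes the whirlin scaffold of hair cells and photoreceptors, Lingo3 (2.55-fold), the netrin and repulsive guidance receptor gene Neo1 (2.28-fold) and the synaptic scaffold gene Magi2 (1.74-fold). Neo1 stood at 30.9, 26.5 and 28.1 RPKM in cKO and at 10.8, 13.1 and 13.5 RPKM in inbred wild type, with no overlap. On a list of 46 neuronal and microtubule genes, 18 were in the inbred tables and 10 in both, of which 3 rose, 6 fell and Plxna1 was not called. Their summed level was 2104 to 2355 RPKM in cKO against 406 to 411 RPKM in inbred wild type, and Uchl1 alone made up most of the former. No member was at 0. Of the neuron markers Elavl4, Tubb3, Stmn2 and Snap25, none was in both lists.

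Among the fibre cell genes, Crygs alone was called higher, while Birc7 and Dnase2b fell. Birc7 (livin), an inhibitor of apoptosis found in differentiating fibre cells, was at 7.86, 11.2 and 8.39 RPKM in cKO and at 26.8, 32.6 and 24.3 RPKM in inbred wild type, and fell 3.05-fold (log2 difference -1.56 ± 0.14, SE, limma adjusted p = 6.03e-08). Dnase2b, the nuclease that degrades the DNA of fibre cell nuclei, was at 8.13, 9.81 and 8.06 RPKM against 15.98, 20.4 and 14.3 RPKM and fell 1.95-fold. Lctl, a klotho-family glycosidase of lens fibre cells, stood at 11.7, 17.5 and 13.6 RPKM in cKO against 15.9, 18.6 and 14.2 RPKM and was not called, with groups that overlap; with median centring it was called lower (-0.54, limma adjusted p of 0.00291). In cKO, as in inbred wild type, library 2 was the highest for all 3 of these genes. On a list of 31 fibre maturation genes, 29 were in the inbred tables and 5 were measured in both: Birc7, Dnase2b, Cnrip1 and Rbp3 fell and Lctl was not called, with a median of -1.56. Their summed level was 30.99 to 41.2 RPKM in cKO and 66.0 to 83.1 RPKM in inbred wild type, and in bulk lenses fewer cells of a type and less RNA per cell cannot be told apart. This list was drawn up with earlier results of these data known. It leaves out Crygs and holds Cnrip1 and Rbp3, which are counted above with the neuronal and sensory genes. Over all 128 genes 60.9% fell, with a median of -0.57.

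Genes for signalling and secreted proteins were mostly higher. Of 13, 10 rose and 3 fell, with a median difference of 1.45, beside rises in 32.8% of all 128 genes. With quantile normalization or median centring 9 rose, 3 fell and Cbl was not called. Wnk2, a kinase that regulates ion transport and ERK signalling, was at 14.2, 13.9 and 15.4 RPKM in cKO against 3.32, 3.35 and 3.65 RPKM in inbred wild type and rose 4.21-fold (log2 difference 1.93 ± 0.12, SE, limma adjusted p = 1.55e-09). Fam132a, the secreted C1q-like protein adipolin, rose 3.81-fold to 28.5, 30.1 and 34.9 RPKM. Rapgef5, an exchange factor for the small GTPase Rap, and Prkg1, the cGMP-dependent kinase, rose 3.30- and 3.05-fold.

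Dusp6 encodes the phosphatase that dampens ERK downstream of FGF receptors, the receptors that drive fibre differentiation. It was at 18.6, 21.3 and 20.2 RPKM in cKO and at 7.39, 6.63 and 7.03 RPKM in inbred wild type, with no overlap, and rose 2.86-fold. R3hdml rose 2.64-fold from 70.3 to 186 RPKM, the highest level of the group, and the adenylyl cyclase gene Adcy9 rose 2.34-fold. Cbl, a ubiquitin ligase that ends signalling of receptor tyrosine kinases, was called higher at 1.61-fold although its groups overlapped: cKO stood at 4.59, 3.88 and 4.57 RPKM and inbred wild type at 1.72, 2.28 and 4.11 RPKM. Without inbred library 1 its adjusted p was 0.0705.

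The falls among signalling genes were Rcan2 (3.84-fold), an inhibitor of calcineurin, Pappa (2.90-fold), a protease that frees insulin-like growth factors, and Fgfbp3 (1.44-fold), which binds FGF. Rcan2 stood at 2.83, 2.38 and 1.88 RPKM in cKO against 7.40, 9.82 and 9.95 RPKM in inbred wild type. On a list of 42 genes of signalling feedback and Notch, 31 were in the inbred tables and 5 in both, of which 3 rose and 2 fell. Their summed level was 70.2 to 73.9 RPKM in cKO and 34.8 to 38.2 RPKM in inbred wild type.

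Tek, the angiopoietin receptor TIE2 of endothelial cells, rose 3.06-fold, from 2.77, 2.28 and 3.09 RPKM in inbred wild type to 7.84, 8.61 and 8.49 RPKM in cKO. It was the only measured gene of 19 endothelial and hyaloid vessel genes, 8 of which were in the inbred tables. Kdr, Cdh5 and Cldn5, which mark the same cells, had inbred means of 2.32, 4.88 and 4.30 RPKM and were not analysed in cKO. The part of vessel cells in the Tek difference was not tested.

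Among 7 genes of membrane traffic, 5 rose and 2 fell, beside rises in 32.8% of all 128 genes. The counts of 5 and 2 were the same with both other scalings. Epn3, an epsin of epithelial endocytosis, was at 17.4, 15.03 and 19.5 RPKM in cKO and at 3.17, 2.94 and 3.84 RPKM in inbred wild type, a 5.22-fold rise (log2 difference 2.22 ± 0.14, SE, limma adjusted p = 1.54e-09). Grtp1, a TBC-domain protein of the kind that switches off Rab GTPases, was at 12.5, 13.1 and 13.6 RPKM against 2.93, 2.12 and 2.36 RPKM and rose 5.29-fold. Asap2, a GTPase-activating protein for Arf, the MARVEL-domain gene Cmtm7 and the Golgi GTPase gene Rab6b rose 2.93-, 2.29- and 1.67-fold. The syntaxin gene Stx11 fell 2.78-fold and Pacsin3, which bends membranes, fell 1.53-fold. All 4 measured genes of a list of 29 traffic and endocytosis genes rose, with a median of 1.83, and 18 of that list were in the inbred tables. Their summed level was 45.8 to 53.3 RPKM in cKO against 13.2 to 16.3 RPKM in inbred wild type.

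Epn3 was also on a list of 34 surface ectoderm and desmosome genes, of which 4 were in the inbred tables and 2 in both. The other, Ceacam10, was not called, at 5.70, 9.04 and 6.90 RPKM in cKO and 6.72, 9.06 and 6.03 RPKM in inbred wild type. The epithelial markers Krt8, Krt18 and Dsp were in the cKO tables but not in the inbred list, so this comparison holds no value for them.

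Of 16 transcription, chromatin and RNA genes, 7 rose, 7 fell and 2 were not called, beside 32.8% higher and 60.9% lower over all 128 genes. The median difference of the 16 was 0.07. With quantile normalization 8 rose, 5 fell and 3 were not called (median 0.51), with Hnrnpa1 called higher and the calls of Hist1h2af and Hmgn3 lost. Cited4, a CBP/p300 cofactor, stood at 16.5, 15.3 and 19.1 RPKM in cKO against 4.53, 3.75 and 3.32 RPKM in inbred wild type and rose 4.38-fold (log2 difference 2.001 ± 0.14, SE, limma adjusted p = 3.31e-09). Myb, a transcription factor of progenitor cells, stood at 14.98, 15.1 and 15.8 RPKM against 4.93, 3.91 and 4.27 RPKM and rose 3.50-fold. Hes6, a bHLH factor that antagonises the Notch effector Hes1 and has CACCTG in the promoter shown, stood at 23.4, 20.99 and 24.4 RPKM against 6.76, 7.12 and 7.43 RPKM and rose 3.23-fold. In all of these genes every cKO library was far above every inbred library.

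Fam46b, a member of a family of poly(A) polymerases, rose 5.22-fold, Lbh, a transcription cofactor of limb bud and heart, rose 3.98-fold, and Btg2, an antiproliferative gene, rose 3.17-fold. For Lbh the inbred libraries were spread from 3.96 to 7.44 RPKM, while cKO held 20.04, 20.6 and 21.9 RPKM. Polr2b, the second largest subunit of RNA polymerase II, rose 1.86-fold, but its values are uncertain. Its normalized value per RPKM and kilobase was 0.008 of that of the median gene in cKO and 0.011 in inbred wild type. The normalized values were also higher in cKO, at 24.1, 23 and 30 against 13.5, 19.9 and 20.9. On the lower side, Aebp1 fell 3.45-fold, Rnf113a1, a splicing-associated ring finger gene, fell 2.12-fold, Malat1, a nuclear long noncoding RNA, fell 1.93-fold from 617 to 319 RPKM, and the zinc finger genes Zbtb7b and Prdm16 fell 1.85- and 1.65-fold. Hmgn3, a nucleosome-binding protein, fell 1.44-fold. On a list of 41 transcription, RNA and chromatin regulators, 31 were in the inbred tables and 7 in both, of which 3 rose, 2 fell and 2 were not called, with a median of 0.34. Over all 128 genes 32.8% rose and 60.9% fell.

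Hist1h2af, a histone H2A gene, was close to absent in cKO. It had 0, 1 and 0 reads in the 3 cKO libraries and 17, 10 and 14 reads in the shallower inbred libraries. The ratio of inbred to cKO, scaled by depth, was 69.0 with an exact 95% interval of 11.7 to 2789 that covers counting error only. The fitted log2 difference of -2.32 depends on the added 0.5 RPKM and is no measure of that ratio. Of its sequence words, 85.9% occur in other genes, as histone genes of this cluster are nearly identical.

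The 3 genes grouped as erythroid fell, while Spna1, counted above with the cytoskeleton, rose. Over all 128 genes 60.9% fell. Hba-a2, an adult alpha-globin, was at 141, 83.4 and 102 RPKM in cKO and at 421, 389 and 365 RPKM in inbred wild type, a 3.60-fold fall (log2 difference -1.87 ± 0.14, SE, limma adjusted p = 9.70e-09). Hba-x, the embryonic zeta-like globin, was at 2.65, 1.24 and 1.03 RPKM against 5.56, 4.38 and 3.92 RPKM and fell 2.82-fold. Ermap, a membrane protein of red cells, fell 3.01-fold. The cKO library 1 was the highest of its group for these 3 genes. Spna1, the erythroid spectrin, went the other way, and so a list of 21 erythroid genes with 4 measured held 3 falls and 1 rise. The summed level of those 4 was 92.5 to 152 RPKM in cKO and 381 to 439 RPKM in inbred wild type, and none was at 0. The red cell markers Alas2, Slc4a1 and Hbb-bh1 were not in the inbred list, while Hbb-y stood there at 13.9 RPKM and was not analysed in cKO. The part of blood left in the pooled lenses in these differences was not tested.

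**Figure D3:**
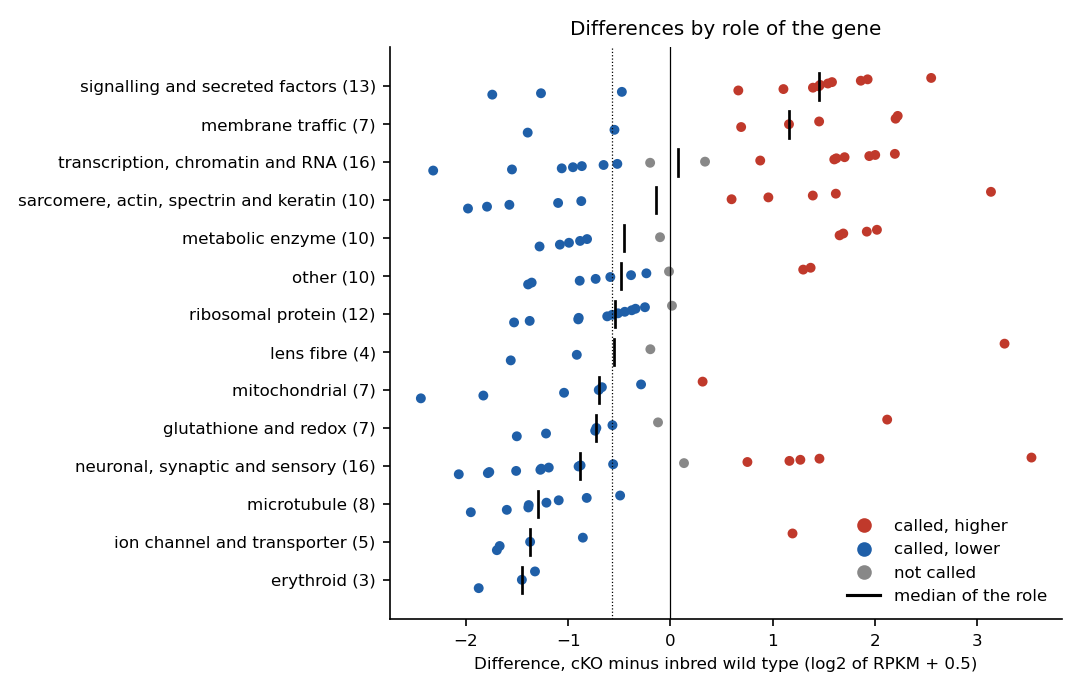
Difference between cKO and inbred wild type on the log2(RPKM + 0.5) scale (horizontal axis) for every gene, by the role of the gene (vertical axis, number of genes in parentheses). Points are genes, red for called higher, blue for called lower and grey for not called. Black bars are medians of a role and the dotted line is the median of all 128 genes, -0.57. All 8 microtubule genes fell, while of the 12 ribosomal genes 11 fell as plotted and 6 with quantile normalization, where 1 rose. The roles were formed after values were seen, Spna1 is counted with the cytoskeleton, and 60.9% of all 128 genes fell.

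Most genes of translation and of mitochondria fell, as did 60.9% of all 128 genes, and the mitochondrial median was -0.70. Of 12 ribosomal protein genes, 11 fell and Rpl19 was not called, with a median difference of -0.54, close to the -0.57 of all genes; with quantile normalization 6 fell, Rpl19 rose and 5 were not called, and with median centring all 12 fell. The folds ran from 1.19 for Rpl36a to 2.60 for Rps28 and 2.93 for Rpl35a. Rps28 was at 105, 106 and 108 RPKM in cKO against 289, 269.6 and 273 RPKM in inbred wild type, and Rpl35a at 10.7, 15.5 and 14.9 RPKM against 44.6, 41.0 and 35.02 RPKM. Both were reduced far beyond the spread of either group. On a list of 30 ribosomal and translation genes, of which 29 were in the inbred tables, 8 were measured: 7 fell and Rpl19 was not called, with a summed level of 1445 to 1506 RPKM in cKO and 2032 to 2303 RPKM in inbred wild type. Between 8.63% and 79.9% of the sequence words of these 12 genes occur elsewhere, as ribosomal genes have many processed copies, and their values are uncertain.

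mt-Atp6, a subunit of ATP synthase encoded in the mitochondrial genome, had the largest fall of all 128 genes on the log2(RPKM + 0.5) scale, though as ratios of mean RPKM the falls of Hist1h2af, Stmn4, Ccdc109b and Cend1 were larger. It was at 113, 205 and 152 RPKM in cKO and at 894, 864 and 736 RPKM in inbred wild type, a 5.30-fold fall (log2 difference -2.44 ± 0.16, SE, limma adjusted p = 1.91e-09). mt-Nd6, a complex I subunit from the other strand of that genome, was at 363, 592 and 432 RPKM against 917, 682 and 638 RPKM and fell 1.61-fold. For both genes cKO library 2 was the highest of its group. Nearly all of the sequence words of mt-Atp6 (99.5%) recur in other genes, against 7.36% for mt-Nd6.

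Of the nuclear genes for mitochondrial proteins, Ccdc109b, which lowers calcium uptake by the uniporter, fell 7.18-fold, from 2.41, 2.51 and 2.52 RPKM to 0.277, 0.264 and 0.496 RPKM. Cpt1a, the gate for fatty acids into mitochondria, fell 2.20-fold, and the complex I genes Ndufa1 and Ndufb4 fell 1.59- and 1.23-fold. Apoo, a component of the inner membrane organising complex, was the exception in direction in RPKM. It was called higher at 1.26-fold with 11.3, 12.3 and 12.3 RPKM against 10.4, 9.09 and 9.24 RPKM. The authors' normalized values instead put Apoo lower in cKO, at 110, 106 and 115 against 155, 146 and 151. Of its sequence words, 46.8% occur in other genes. That call is fragile: without cKO library 2 its adjusted p was 0.0763, without cKO library 3 it was 0.0586 and without inbred library 2 it was 0.0518. The direction itself turned with quantile normalization (-0.01) and with median centring (-0.03). Of the 7 genes, 1 rose and 6 fell as measured, none rose and 3 fell with quantile normalization, where Ndufb4 changed sign (0.11), and none rose and 6 fell with median centring. Of 43 listed mitochondrial genes, all in the inbred tables, 4 were measured, of which 3 fell and Apoo rose, with a summed level of 966 to 1253 RPKM in cKO and 2085 to 2633 RPKM in inbred wild type.

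Of 7 glutathione and redox genes, 5 fell, Gsta4 rose and Gpx8 was not called, beside falls in 60.9% of all 128 genes. Gsta4, a glutathione transferase for lipid aldehydes, was at 18.2, 16.7 and 20.5 RPKM in cKO and at 3.38, 4.49 and 3.77 RPKM in inbred wild type and rose 4.76-fold (log2 difference 2.12 ± 0.14, SE, limma adjusted p = 1.54e-09). Its relatives moved the other way. Gstp2 fell 2.88-fold and Gstm1 2.34-fold, the latter from 97.2, 92.5 and 85.4 RPKM to 42.1, 38.4 and 37.1 RPKM. Of their sequence words, 78.1% in Gstp2 and 34.3% in Gstm1 occur in other genes. The gamma-glutamylcyclotransferase gene Ggct, the NADPH oxidase subunit gene Cyba and the reductase gene Cyb5r2 fell 1.69-, 1.69- and 1.65-fold, though Cyb5r2 changed sign with quantile normalization (0.44), and Gpx8 was not called. Of a list of 36 oxidant defence genes, 26 were in the inbred tables and 3 in both: Gsta4 rose, Gstm1 fell and Gpx8 was not called.

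Ion channels and transporters were lower in 4 of 5 genes under each scaling, beside falls in 60.9% of all 128 genes as measured. Scn11a, a voltage-gated sodium channel, was at 1.54, 1.38 and 1.01 RPKM in cKO against 5.18, 5.69 and 5.11 RPKM in inbred wild type and fell 4.07-fold. Slc46a3, a lysosomal transporter, the cation channel gene Trpc6 and Fxyd1, which regulates the sodium pump, fell 3.45-, 2.70- and 1.90-fold. Slc8a1, the sodium-calcium exchanger, rose 2.50-fold, from 1.99, 2.56 and 3.18 RPKM to 6.30, 6.74 and 6.31 RPKM. A list of 34 channels and solute carriers, 18 of them in the inbred tables, had 2 measured members, Slc8a1 higher and Scn11a lower.

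Of 10 metabolic enzymes, 4 rose and 5 fell, beside 32.8% higher and 60.9% lower over all 128 genes. Tecrl was not called, and the median difference of the enzymes was -0.46, near the -0.57 of all genes. With quantile normalization there were 5 rises and 4 falls (median 0.46), with Tecrl called higher and the call of Cyp7b1 lost, and with median centring 4 rises and 6 falls. Hddc3, a hydrolase, and Gmpr, GMP reductase of purine salvage, rose 4.53- and 4.06-fold. Ckb, brain-type creatine kinase, had the highest cKO level of them at 346, 352 and 374 RPKM in cKO against 116, 107 and 117 RPKM in inbred wild type, a 3.15-fold rise (log2 difference 1.65 ± 0.09, SE, limma adjusted p = 2.82e-10). Pgpep1, which trims pyroglutamate from peptides, rose 3.31-fold. The falls were Adc (2.56-fold), named for arginine decarboxylase, Cyp7b1 (2.33-fold), an oxysterol hydroxylase, the lipoprotein-associated phospholipase gene Pla2g7 (2.14-fold), Elovl4 (2.14-fold), which elongates very long fatty acids, and Pgap2 (1.81-fold), of GPI anchor remodelling. Pla2g7 went from 179, 160.1 and 134 RPKM to 73.5, 77.9 and 70.3 RPKM.

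Of the 10 genes outside these roles, 2 rose, 7 fell and Ceacam10 was not called, beside falls in 60.9% of all 128 genes; with quantile normalization 2 rose, 4 fell and 4 were not called, as Ube2v1, Cxx1b and Rnaset2a lost their calls. Fbxo10, which encodes a subunit of ubiquitin ligases, rose 2.75-fold and Dapl1 rose 2.59-fold, from 3.97, 5.33 and 2.40 RPKM to 7.42, 12.5 and 10.4 RPKM. Falls were seen in the serine protease gene Tmprss11e (2.90-fold), Wdr41 (2.71-fold), the calcium-binding S100a11 (1.88-fold), the adhesion gene Ceacam2 (1.76-fold), the ubiquitin-conjugation variant Ube2v1 (1.51-fold), Cxx1b (1.32-fold) and the ribonuclease gene Rnaset2a (1.18-fold). Rnaset2a had the smallest difference among all called genes, -0.24 ± 0.08 (SE, limma adjusted p = 0.0147), with 96.4, 94.8 and 90.8 RPKM in cKO against 118, 106 and 109 RPKM. It changed sign with quantile normalization (0.11), and without cKO library 3 its adjusted p was 0.0534. The next smallest were Rpl36a, at -0.25 (0.0537 without cKO library 1 and 0.10 as the difference with quantile normalization), and Ndufb4, at -0.29.

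The 8 genes without a call were Lctl, Rpl19, Cbx6, Plxna1, Hnrnpa1, Tecrl, Ceacam10 and Gpx8. Of these 8, Rpl19, Cbx6, Plxna1, Hnrnpa1 and Gpx8 are among the genes described below whose RPKM and normalized values were not in proportion. By the normalized values Rpl19, Hnrnpa1 and Gpx8 were lower in every cKO library than in any inbred library. For Rpl19 these values were 33.1, 27.8 and 30.0 in cKO against 83.9, 47.8 and 62.8 in inbred wild type. The intervals given here hold for RPKM as deposited and do not cover that disagreement. For Rpl19 the 95% interval of the log2 difference was -0.20 to 0.23, and for Plxna1, a semaphorin receptor, it was -0.14 to 0.40. For Cbx6, a Polycomb protein with 3.68, 2.08 and 4.27 RPKM in cKO against 1.124, 3.93 and 3.04 RPKM, the interval of -0.30 to 0.98 still includes a rise of nearly 2-fold.

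Hnrnpa1, an RNA-binding protein of splicing, was not called although its 3 cKO libraries (218, 217 and 202 RPKM) were all below the inbred libraries (253, 221 and 259 RPKM), with an adjusted p of 0.0518 by limma. Without inbred library 2 that p was 0.0227, and with a filter at a mean of 5 RPKM it was 0.0477. Without cKO library 2, Cbx6 and Lctl were called (adjusted p of 0.0019, higher, and 0.0231, lower), and Plxna1 was called higher without inbred library 3 (0.0341). With all libraries kept, median centring called Lctl (-0.54), Hnrnpa1, Gpx8, Tecrl and Rpl19 lower, and quantile normalization called Hnrnpa1, Tecrl and Rpl19 higher and Gpx8 lower.

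For 5 of the 8 the knockout level in RPKM lay near the inbred level while mixed wild type stood apart. Mixed wild type differed from inbred wild type in 63 of the 128 genes (49.2%) at an adjusted p under 0.05, 39 higher (30.5%) and 24 lower (18.8%). Ceacam10, Gpx8, Lctl and Tecrl had mixed means of 15.4, 20.4, 31.9 and 3.97 RPKM, inbred means of 7.27, 9.77, 16.3 and 2.01 RPKM and cKO means of 7.21, 8.93, 14.2 and 1.83 RPKM. In Plxna1 the mixed libraries were low instead, at 8.34, 6.30 and 6.81 RPKM, against 14.5, 13.7 and 14.2 RPKM in cKO and 11.2, 12.1 and 15.6 RPKM in inbred wild type. The limma adjusted p between the wild types was 0.000449 for Ceacam10, 0.000203 for Gpx8, 0.000302 for Lctl, 0.0013 for Tecrl and 0.00142 for Plxna1. The cKO and mixed values come from the libraries on which the list was chosen, and the inbred libraries are shared by both comparisons. Every gene was listed for a difference between cKO and mixed wild type. A gene with cKO near inbred wild type was therefore likely to show mixed wild type apart. The pattern follows largely from the choice of the list.

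**Figure D4:**
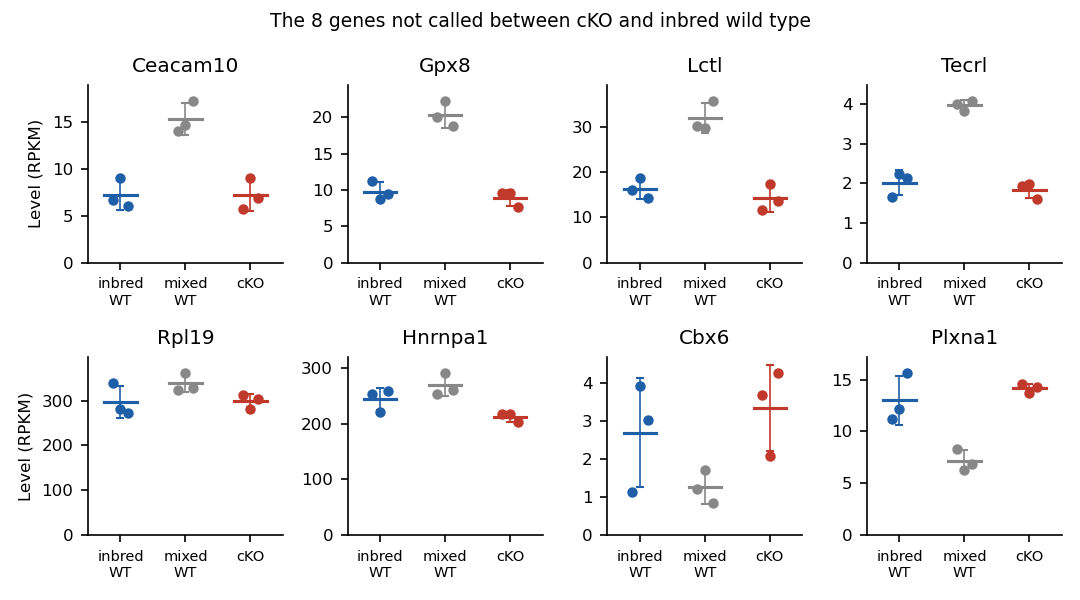
Level in RPKM (vertical axes, each starting at 0) of the 8 genes not called between cKO and inbred wild type, in inbred wild type (blue), mixed wild type (grey) and cKO (red). Points are libraries, 3 per group, thick bars are means and thin bars ± 1 SD; for Ceacam10, Gpx8, Lctl and Tecrl all 3 mixed libraries lie above all 6 others, and for Plxna1 below them.

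Against both wild types together, all 3 cKO libraries lay beyond all 6 wild type libraries in 119 genes (93.0%), 40 above (31.2%) and 79 below (61.7%). Hnrnpa1 is among those below. The list was chosen for a difference between cKO and mixed wild type. Separation from the mixed libraries was thus largely set by that choice and adds no support. The called genes whose cKO libraries overlapped the range of the 6 wild type libraries were 2, Cbl and Apoo. For Apoo the order was inbred wild type (9.56 RPKM), cKO (12.01 RPKM) and mixed wild type (17.4 RPKM), so its sign in RPKM depends on which wild type is the reference. It also depends on the kind of value, as the normalized values of Apoo in cKO lay below those of both wild types.

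For 28 of the 128 genes the authors' 2 kinds of value were not in proportion. The normalized expression value per RPKM and kilobase of exon was nearly the same for most genes, but for these 28 it was under 0.5 of that of the median gene, in cKO or in inbred wild type. All 12 ribosomal genes were among them, as were mt-Atp6, Hba-a2, Gstp2, Tubb2a and Hist1h2af. Of the 28, 3 rose (Apoo, Polr2b and R3hdml), 20 fell and 5 were not called (Rpl19, Plxna1, Cbx6, Hnrnpa1 and Gpx8). At least 10% of the sequence words occurred in other genes for 22 of the 28 and for 6 of the other 100. Uchl1, Crygs, Myh7b and Gcg were not among the 28. Without the 28 genes, a check added after the data were seen, 97 of 100 genes were called, 39 higher and 58 lower.

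**Figure D5:**
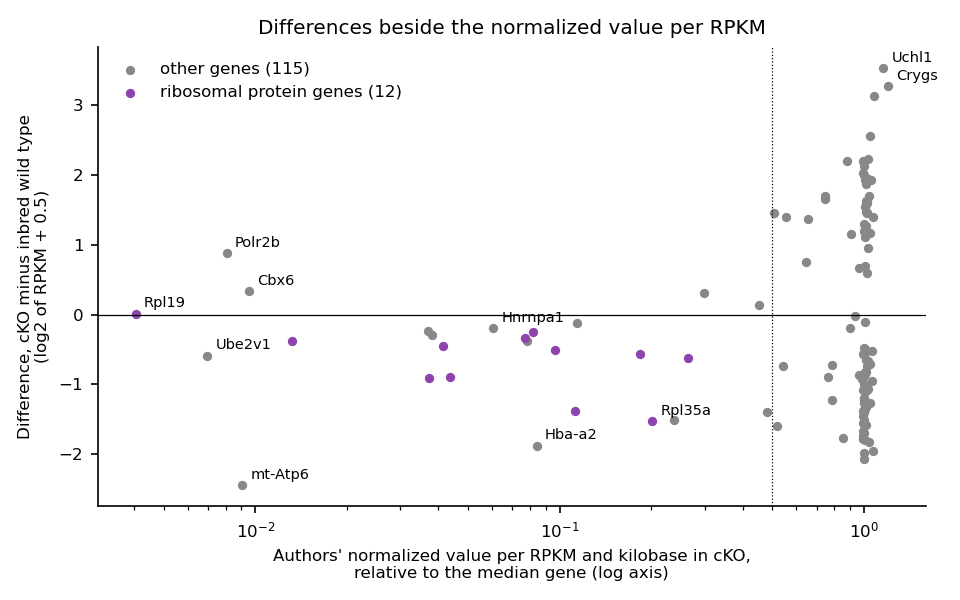
Difference between cKO and inbred wild type on the log2(RPKM + 0.5) scale (vertical axis) against the authors' normalized value per RPKM and kilobase in cKO relative to the median gene (horizontal axis, log scale), for 127 genes; Hist1h2af, at 0 on the horizontal axis, is not drawn. Points are genes, purple for the 12 ribosomal protein genes, and the dotted line marks 0.5; the largest rises lie near 1, while Rpl19, mt-Atp6 and Polr2b lie near 0.01.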

How the data were processed

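RNA from pooled mouse lenses was sequenced in 9 libraries, 3 per group. An Illumina TruSeq kit was used for the libraries, per the labels' protocols, and the submitters' processing notes name CASAVA 1.8.2. Aligner, gene annotation and build of the genome: not given in the sources used here. For each gene and library the authors deposited RPKM and a normalized expression value, per the file headers. The latter is a score of no stated unit that the authors' files hold on separate scales, so it was used only per RPKM and kilobase. In the inbred tables, 24 of 7700 rows with 12 repeated symbols were left out. Low RPKM values times exon length were whole multiples of a step (100%, within 0.1 reads), from which the depth of each library was taken. RPKM is not a count, so a count model was not used.

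The groups were compared by limma 3.58.1 in R 4.3.3, with its mean-variance trend, on log2(RPKM + 0.5) of the 128 genes, all with a mean of at least 1 RPKM over the 6 libraries. Calls used a Benjamini-Hochberg adjusted p under 0.05. With 3 libraries a group, exact permutation could reach no p under 0.1. The fit was tested on simulated data. Same-numbered libraries of the groups did not deviate together in every pair (r of -0.01, 0.24 and 0.20), so the groups were not paired. The alternatives were pseudocounts of 0.1 and 1, a filter at a mean of 5 RPKM and none, quantile normalization, median centring, limma without trend, a minimum fold of 2, a joint fit of 9 libraries, the replicate block and each library left out.

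The genes and the 19 lists were chosen with earlier results of these data known. Named by rule were the 20 largest rises and 20 largest falls without overlap and with a mean of at least 2 RPKM, genes not called, list members, the 3 smallest called differences, and markers. The other genes, and the 14 roles, were added after values were seen. No gene of the lists for retinoid enzymes (17 genes), macrophages (14) and periocular mesenchyme (14) was measured in both groups. Sequence words of 31 bases were looked up in other genes' transcripts (GENCODE M21, GRCm38), and 103 genes matched a RefSeq promoter, 97 by symbol and 6 by synonym.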

Additional observations from a re-analysis of the deposited data

How the results depend on the processing

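Of the 128 genes, 100 kept their direction and their side of the threshold under every alternative other than a required fold, and 59 also when the test required more than a 2-fold difference. With that minimum fold of 2, 60 genes were called, 31 lower and 29 higher. Counts of called genes ran from 118 to 121 when a library was left out, with 41 to 43 higher and 77 to 79 lower. With the replicate number as a block 120 genes were called, 42 higher and 78 lower, and no count of calls moved; the numbers are only labels here, since same-numbered libraries did not all deviate together. Quantile normalization gave 105 calls (43 higher, 62 lower; median difference -0.34), median centring 122 (39 higher, 83 lower; median -0.91), and a mean of at least 5 RPKM 94 of 99 genes (38 higher, 56 lower). Directions turned with quantile normalization for Apoo (-0.015), Cyb5r2 (0.44), Hnrnpa1 (0.20), Krt40 (0.032), Ndufb4 (0.11), Plxna1 (-0.10), Rnaset2a (0.11), Rpl36a (0.10) and Tecrl (1.09), of which Hnrnpa1 and Tecrl were then called (adjusted p 0.00522 and 0.00462). They turned with median centring for Apoo (-0.032), Cbx6 (-0.0080), Plxna1 (-0.21) and Rpl19 (-0.33, adjusted p 0.00536). With a library left out, 3 genes without a call changed sign: Ceacam10 (-0.18 to 0.14), Rpl19 (-0.046 to 0.11) and Cbx6 (-0.090 to 0.63). The cause of these changes was not tested. The share of promoters with the box was 15.5% in the bases before the start and 49.6% for CACCT. Depth limits the lowest genes most: Hist1h2af had 1 read over the 3 cKO libraries and 41 over the inbred libraries.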
